A study of Homo sapiens with 22 samples.

Results

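Complement is a cascade of blood proteins that tags and lyses cells, and 9 of its genes were followed here through human neuroblastoma cells: C1R and C1S (classical pathway), C3 and CFD (the central component and the alternative pathway), C7 (terminal pathway), SERPING1 and CFI (soluble regulators), and CD55 and CD59 (regulators anchored in the cell membrane). They were chosen from the measured values, because C7, C3, C1S and CFI had been seen to change in these libraries, and they are 9 of the 63677 genes listed. The levels and changes of these 9 members are therefore a description. A further 48 complement genes, chosen for their place in the pathway and not for how they moved, are given beside them.

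SH-SY5Y, a neuroblastoma line of sympathetic lineage, carried a lentiviral shRNA under puromycin selection. The shRNA was aimed at the CASC15-003 transcript (sh003) or the CASC15-004 transcript (sh004) of the long non-coding RNA gene CASC15, or was a scrambled control with no mammalian target, and each transcript was targeted with sh1 and sh2. Cells were collected in 10% serum at day 0, after 7 days of retinoic acid (10 mM in the labels), or as spheres in sphere-forming medium. The labels give the serum at day 7 as 10% in one text and as 1% in another. There were 3 sh003, 2 sh004 and 2 control libraries at day 7, 3 sh003, 2 sh004 and 3 control libraries at day 0, and 2 sh003, 2 sh004 and 1 control library of spheres. KELLY, another neuroblastoma line, gave 1 library with a SOX9 siRNA and 1 with a control siRNA. No untreated library was taken at day 7, so retinoic acid, serum and time in culture cannot be told apart.

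Complement is activated when C1q, carried in a complex with the proteases C1r and C1s, binds a surface, or through lectins, or by slow spontaneous turnover of C3. All routes meet at C3, whose cleavage coats the surface with C3b and leads on to the membrane attack complex, in which C7 gives the growing complex its hold on the membrane. Most of these proteins in blood come from the liver, but many other cells make some of them, and in the nervous system complement is known for marking synapses for removal.

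The sequences that define the shRNA groups are the 4 shRNA targets, on chromosome 6 with CASC15, printed because sh1 and sh2 of a transcript gave different levels of several complement genes. Capitals mark the whole 21-base target.

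CASC15-003 sh1: CTAGCACTGACCTCCTTCATT
CASC15-003 sh2: CTTTCCATCAGCCAACAATAT
CASC15-004 sh1: CAGGCTGTTCCCAGGGATTTA
CASC15-004 sh2: TAGGAATACCTTACATCCAAT

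Promoters are shown for C7 and CFI, which had the widest ranges among the members with a promoter in the RefSeq table (GRCh38.p14), and for C1R, which has 2 start sites there. Each is 300 bases, most of them before the start, written 5′ to 3′ on the gene's strand. Capitals mark matches on either strand to 3 motifs: GAS (TTCNNNGAA, found in 7.66% of the 35116 human promoters of this length), a C/EBP motif (TTGCNNAA, 10.5%) and a retinoic acid receptor repeat unit (AGGTCA, 13.8%). These letters are a description and not evidence of binding.

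C7, chr5:40909247-40909546, plus strand: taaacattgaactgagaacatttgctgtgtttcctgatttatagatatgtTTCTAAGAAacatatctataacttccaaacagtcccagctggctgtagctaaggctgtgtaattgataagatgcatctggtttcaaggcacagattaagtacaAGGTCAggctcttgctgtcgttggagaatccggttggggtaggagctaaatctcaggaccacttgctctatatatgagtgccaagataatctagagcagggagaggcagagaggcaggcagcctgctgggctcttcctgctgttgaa
CFI, chr4:109801950-109802249, minus strand: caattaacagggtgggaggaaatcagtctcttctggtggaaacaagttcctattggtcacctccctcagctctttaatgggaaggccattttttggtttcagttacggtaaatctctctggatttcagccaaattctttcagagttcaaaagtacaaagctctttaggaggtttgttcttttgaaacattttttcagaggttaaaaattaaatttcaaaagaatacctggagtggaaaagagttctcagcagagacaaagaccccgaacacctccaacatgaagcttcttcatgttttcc
C1R, chr12:7092396-7092695, minus strand: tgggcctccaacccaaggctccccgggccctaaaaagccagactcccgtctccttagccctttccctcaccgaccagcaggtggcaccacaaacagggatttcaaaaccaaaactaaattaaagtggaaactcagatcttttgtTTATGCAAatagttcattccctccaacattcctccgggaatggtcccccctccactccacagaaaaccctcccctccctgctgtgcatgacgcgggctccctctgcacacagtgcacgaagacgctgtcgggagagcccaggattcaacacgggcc
C1R, chr12:7091844-7092143, minus strand: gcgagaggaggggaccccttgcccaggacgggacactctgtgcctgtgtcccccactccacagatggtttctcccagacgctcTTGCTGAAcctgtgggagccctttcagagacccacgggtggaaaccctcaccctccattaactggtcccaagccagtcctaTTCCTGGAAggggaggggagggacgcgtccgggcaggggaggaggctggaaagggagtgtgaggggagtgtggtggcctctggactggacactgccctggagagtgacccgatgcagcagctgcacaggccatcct

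With the start site at 0, the C7 window held a GAS match at -200 and a receptor repeat unit at -97. The first C1R window held a C/EBP match at -106, and the second a GAS match at -86 and a C/EBP match at -167. The CFI window held none of these letters.

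Levels are RPKM, reads scaled by gene length and by the assigned reads of the library, which allows levels of different genes to be set side by side. Libraries held 11.9 to 62.1 M assigned reads. Changes are differences of log2(RPKM + 0.5) with their standard error (SE) from limma, a linear model fitted over all genes, and calls are genes with a p below 0.05 after Benjamini-Hochberg adjustment over all genes of the table. This scale understates the change of genes near 0. Where groups are said not to overlap, the share of all genes with such a split was not counted. The titles number 3 batches, and libraries of the same batch deviated together, so a fit with batch as a block is given beside the fit without it. All sh004 libraries belong to batch 2, and batch 3 holds only the sh003 sh1 and control libraries of day 0. In RNA from whole cultures, fewer cells of a type and less RNA per cell cannot be told apart.

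All isoforms of the targeted gene were added together, and neither transcript was measured on its own. CASC15 with sh003 was not lower than the control of its batch at day 0, at 2.65 (sh1 batch 3), 1.95 (sh2 batch 1) and 1.57 RPKM (sh2 batch 2), against 2.38, 1.52 and 1.31 RPKM in those controls. At day 7 it was at 2.08 (sh1 batch 2), 3.27 (sh2 batch 1) and 3.38 RPKM (sh2 batch 2) with sh003, against 3.33 (batch 1) and 3.26 RPKM (batch 2) in controls, and it was clearly lower with sh1 alone. With sh004 it was at 1.31 and 1.48 RPKM at day 7, against 3.26 RPKM in the batch 2 control, and at 1.16 and 1.14 RPKM at day 0, against 1.31 RPKM. In spheres it was at 1.63 and 2.46 RPKM with sh003 and 1.59 and 1.60 RPKM with sh004, against 2.15 RPKM in the control. The names sh003 and sh004 therefore stand for the shRNA a library carried, not for a measured loss of the transcript.

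Several libraries stood apart. CYP26A1, whose enzyme degrades retinoic acid, lay between 9.0 and 687 RPKM at day 7, against at most 0.271 RPKM at day 0, and the lowest day 7 value was that of sh004 sh2. The day 7 library of sh003 sh1 batch 2 and the day 0 library of sh003 sh2 batch 1 carry culture tags that go against their titles, and the titles were followed. CYP26A1 was at 687 RPKM in the first of them and at 0.199 RPKM in the second, which are levels of the day in each title. In batch 1, 356 genes had 0 reads in all 4 libraries and 10 or more in each of the other 11, of which 0 were members and 2 were in the wider list. Neuroblast markers summed to 529 to 1402 RPKM in SH-SY5Y libraries. Schwann cell markers summed to 2.31 to 5.97 RPKM. Hepatocyte markers summed to 0 to 1.45 RPKM, macrophage markers to 0.295 to 2.13 RPKM and endothelial markers to at most 0.748 RPKM. In these lists 1 hepatocyte marker reached 1 RPKM with sh003 at day 0, and 1 macrophage marker did in control and in sh004 spheres. Fibroblast and mesenchymal markers, by contrast, summed to 84.2 to 446 RPKM. Of these, COL3A1 alone was at 52.6 to 380 RPKM in monolayers, while DCN was at 0.0880 to 8.71 RPKM.

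**Figure D1:**
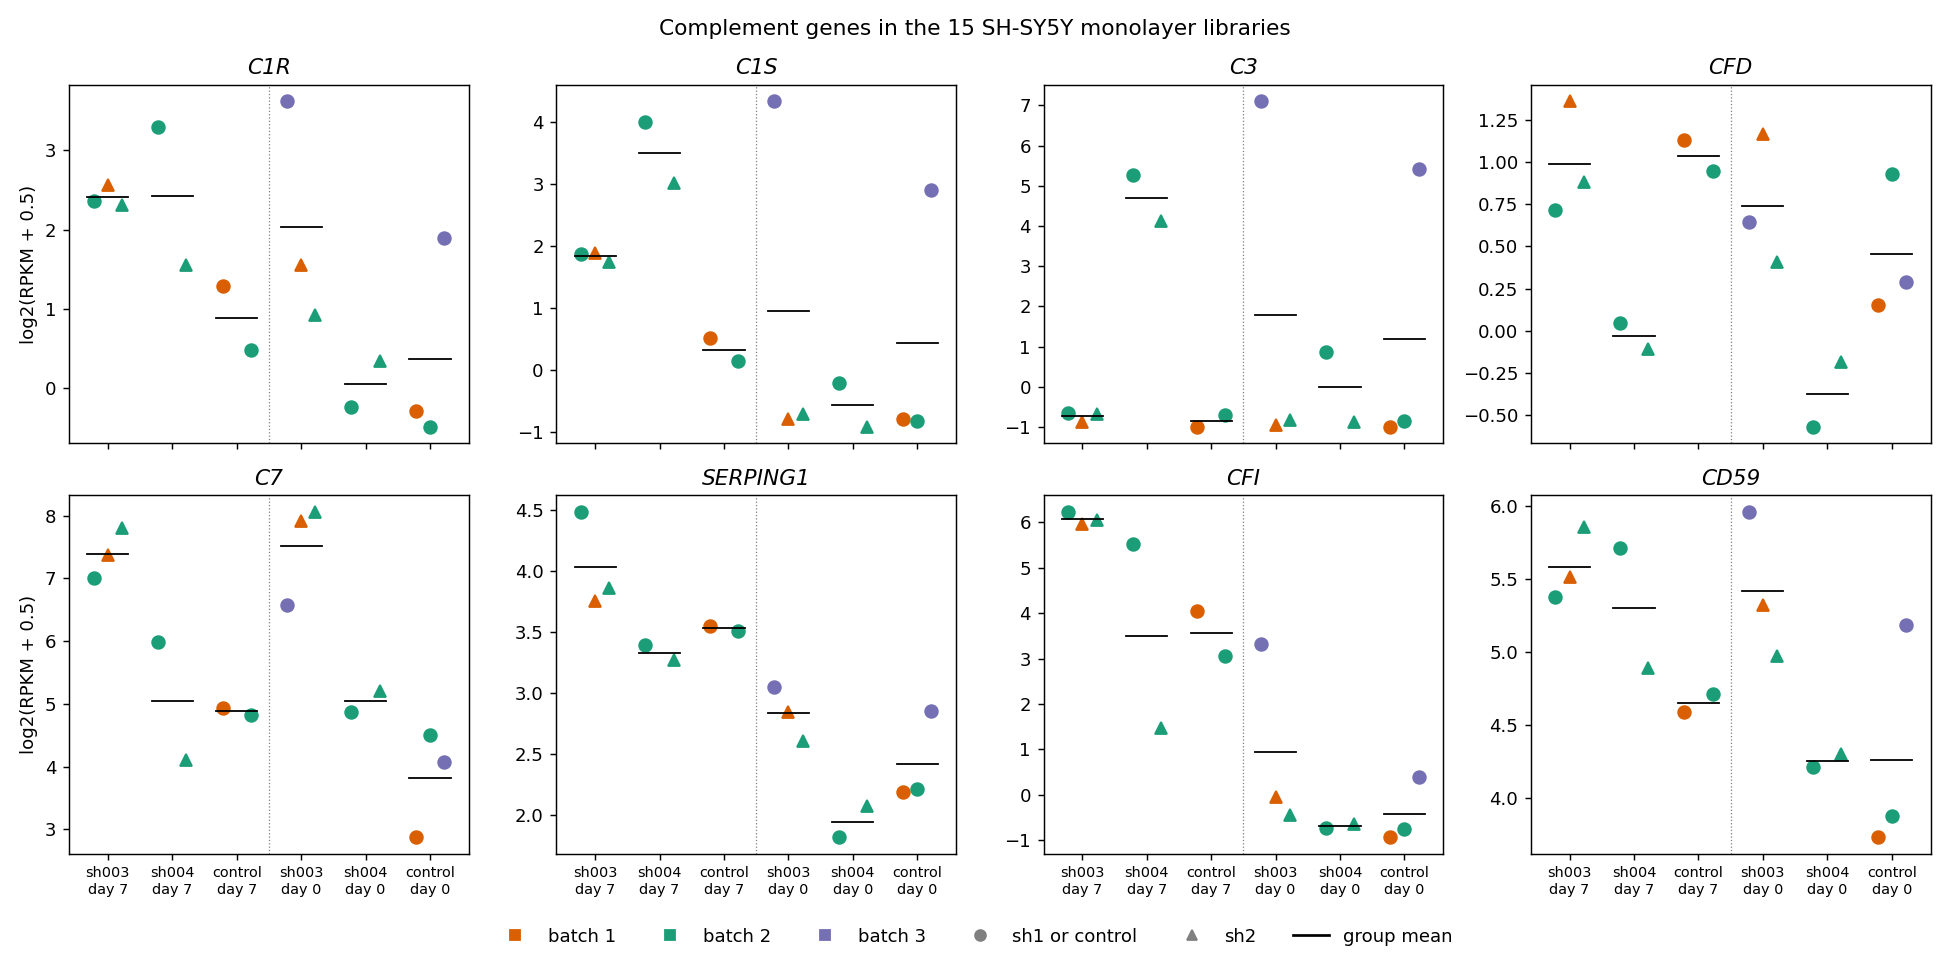
Levels of 8 complement genes in the 15 monolayer libraries, as log2(RPKM + 0.5), with 1 point per library coloured by batch and a line at the group mean. C7 lay higher in all 6 sh003 libraries than in every other library, and the batch 3 libraries of day 0 were the highest of that day for C1R, C1S and C3. The share of all genes with these orders was not counted.

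C1R and C1S are the serine proteases of the C1 complex: C1r activates C1s, which then cleaves the next components. At day 7, C1S was at 3.18 (sh1 batch 2), 3.22 (sh2 batch 1) and 2.84 RPKM (sh2 batch 2) with sh003, at 15.5 (sh1) and 7.61 RPKM (sh2) with sh004, and at 0.927 (batch 1) and 0.609 RPKM (batch 2) in controls. The 3 groups did not overlap, and sh004 was the highest. At day 0, C1S was at 19.8 (sh1 batch 3), 0.0775 (sh2 batch 1) and 0.116 RPKM (sh2 batch 2) with sh003, at 0.365 (sh1) and 0.0302 RPKM (sh2) with sh004, and at 0.0790 (batch 1), 0.0689 (batch 2) and 6.98 RPKM (batch 3) in controls. Only the batch 3 libraries passed 1 RPKM at that stage, in both the sh003 and the control group.

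C1R was at 4.61, 5.42 and 4.45 RPKM with sh003 at day 7, in the same order of libraries, at 9.30 and 2.45 RPKM with sh004, and at 1.94 and 0.900 RPKM in controls. Every sh003 and sh004 library lay above both controls. At day 0 it was at 11.8, 2.44 and 1.40 RPKM with sh003, 0.352 and 0.764 RPKM with sh004, and 0.323, 0.214 and 3.21 RPKM in controls, where the batch 3 control overlapped sh003. Set against the control of its own batch, C1R with sh003 differed by 1.41 to 1.84 (log2) in the 3 batches of day 0 and by 1.28 to 1.87 in the 3 libraries of day 7. C1R shares 672 exon bases with C1RL, and C1S shares 229 with EMG1, on the same strand in each case, so the origin of reads there is uncertain. C1R and C1S correlated at 0.855 over the 15 libraries, which share batches and days.

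C3 is the component on which every pathway converges. At day 7 it was at 0.140, 0.0437 and 0.130 RPKM with sh003, at 38.1 (sh1) and 16.9 RPKM (sh2) with sh004, and at 0 (batch 1) and 0.115 RPKM (batch 2) in controls. At day 0 it was at 137 (sh1 batch 3), 0.0198 (sh2 batch 1) and 0.0592 RPKM (sh2 batch 2) with sh003, at 1.32 (sh1) and 0.0431 RPKM (sh2) with sh004, and at 0 (batch 1), 0.0566 (batch 2) and 42.1 RPKM (batch 3) in controls. High C3 thus appeared in both batch 3 libraries at day 0 and in both sh004 libraries at day 7, while the sh003 and control libraries of day 7, none of them from batch 3, held 0.140 RPKM or less. A count of 3 reads, the upper limit that a count of 0 allows, corresponds to 0.0303 RPKM in the shallowest library, for counting error only.

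CFD encodes factor D, the protease that starts the alternative pathway convertase by cutting factor B. It was low throughout, at 1.14, 2.06 and 1.34 RPKM with sh003 at day 7, 0.534 and 0.429 RPKM with sh004, and 1.69 and 1.42 RPKM in controls. Its day 0 levels were 1.06, 1.74 and 0.827 RPKM with sh003, 0.174 and 0.380 RPKM with sh004, and 0.613, 1.40 and 0.724 RPKM in controls. The sh004 libraries lay below every control library of the same day. They rested on 6 to 25 reads each, and the change was not called on either day (log2 change -1.07, SE 0.37, at day 7 and -0.83, SE 0.33, at day 0).

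C7, which anchors the growing membrane attack complex, was the member that set the sh003 libraries apart. At day 7 it was at 128 (sh1 batch 2), 165 (sh2 batch 1) and 223 RPKM (sh2 batch 2) with sh003, at 62.7 (sh1) and 16.8 RPKM (sh2) with sh004, and at 30.2 and 27.7 RPKM in controls. At day 0 it was at 94.9 (sh1 batch 3), 239.5 (sh2 batch 1) and 267 RPKM (sh2 batch 2) with sh003, at 28.8 and 36.5 RPKM with sh004, and at 6.83, 22.2 and 16.3 RPKM in controls. No sh003 library overlapped an sh004 or control library, in a member chosen with these values known. The share of all genes with that split was not counted. Against the control of its own batch, sh003 differed by 5.03 (batch 1), 3.56 (batch 2) and 2.51 (batch 3) at day 0 on the log2 scale, and by 2.43 (sh2 batch 1), 2.19 (sh1 batch 2) and 2.98 (sh2 batch 2) at day 7.

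Among markers of fibroblasts and mesenchymal cells, DCN was at 3.93, 6.78 and 8.71 RPKM with sh003 at day 0, against 0.250, 0.268 and 0.332 RPKM in controls. At day 7, where C7 stayed at 128 RPKM or more, DCN was at 0.758, 0.848 and 3.04 RPKM with sh003, against 0.153 and 0.596 RPKM in controls. COL1A1 was at 11.9, 11.8 and 12.1 RPKM with sh003 at day 0, against 3.86, 2.13 and 11.5 RPKM in controls. For DCN and COL1A1 sh003 and control did not overlap at day 0, while LUM, THY1, PDGFRB and COL3A1 overlapped. The margin of COL1A1 was narrow, and in batch 3 it was at 11.9 RPKM with sh003, against 11.5 RPKM in the control. The 6 markers of this list summed to 268 to 446 RPKM with sh003 at day 7, against 179 to 272 RPKM in controls, and to 197 to 385 RPKM with sh003 at day 0, against 84.2 to 359 RPKM in controls. COL3A1 was a large part of these sums. At day 7 it was at 380, 223 and 194 RPKM with sh003, against 221 and 149 RPKM in controls. DCN passed at day 0 with the batch block (log2 change 3.09, SE 0.36, limma adjusted p = 0.0183) but not without it (adjusted p = 0.0750), and the other 5 markers passed in neither fit. The part of these markers in the levels of C7 and of the other members was not tested.

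SERPING1 encodes the C1 inhibitor, which inactivates C1r and C1s. It was at 21.9, 13.0 and 14.0 RPKM with sh003 at day 7, 9.99 and 9.12 RPKM with sh004, and 11.2 and 10.9 RPKM in controls. Its day 0 levels were 7.76, 6.67 and 5.59 RPKM with sh003, 3.02 and 3.71 RPKM with sh004, and 4.06, 4.13 and 6.71 RPKM in controls. All 7 day 7 libraries lay above all 8 day 0 libraries.

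CFI encodes factor I, the protease that cuts C3b and C4b with the help of cofactors. Among the members it had the widest change with day in sh003 cells and in controls. At day 7 it was at 74.7 (sh1 batch 2), 61.5 (sh2 batch 1) and 65.5 RPKM (sh2 batch 2) with sh003, 45.7 (sh1) and 2.26 RPKM (sh2) with sh004, and 16.0 (batch 1) and 7.84 RPKM (batch 2) in controls. At day 0 it was at 9.45 (sh1 batch 3), 0.469 and 0.237 RPKM with sh003, 0.102 and 0.143 RPKM with sh004, and 0.0217, 0.0974 and 0.803 RPKM in controls. The sh003 libraries of day 7 were above all others, and the lowest CFI of that day was in sh004 sh2, the library with the lowest CYP26A1. CFI of sh003 sh1 batch 3 at day 0 overlapped the day 7 range of controls and sh004.

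CD59 blocks the last step of the membrane attack complex and CD55 speeds the decay of convertases. CD59 was at 41.1, 45.3 and 57.4 RPKM with sh003 at day 7, 52.0 and 29.3 RPKM with sh004, and 23.6 and 25.7 RPKM in controls, with no overlap between shRNA groups and control. At day 0 it was at 61.9, 39.6 and 31.0 RPKM with sh003, 18.1 and 19.3 RPKM with sh004, and 12.8, 14.2 and 35.9 RPKM in controls, where the batch 3 control lay within the sh003 range. Within batches sh003 differed by 0.67 to 1.14 at day 7 and by 0.78 to 1.59 at day 0 on the log2 scale. CD55 held at most 0.0553 RPKM in any monolayer library and 0.0959 RPKM in any sphere, and was tested in neither table.

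**Figure D2:**
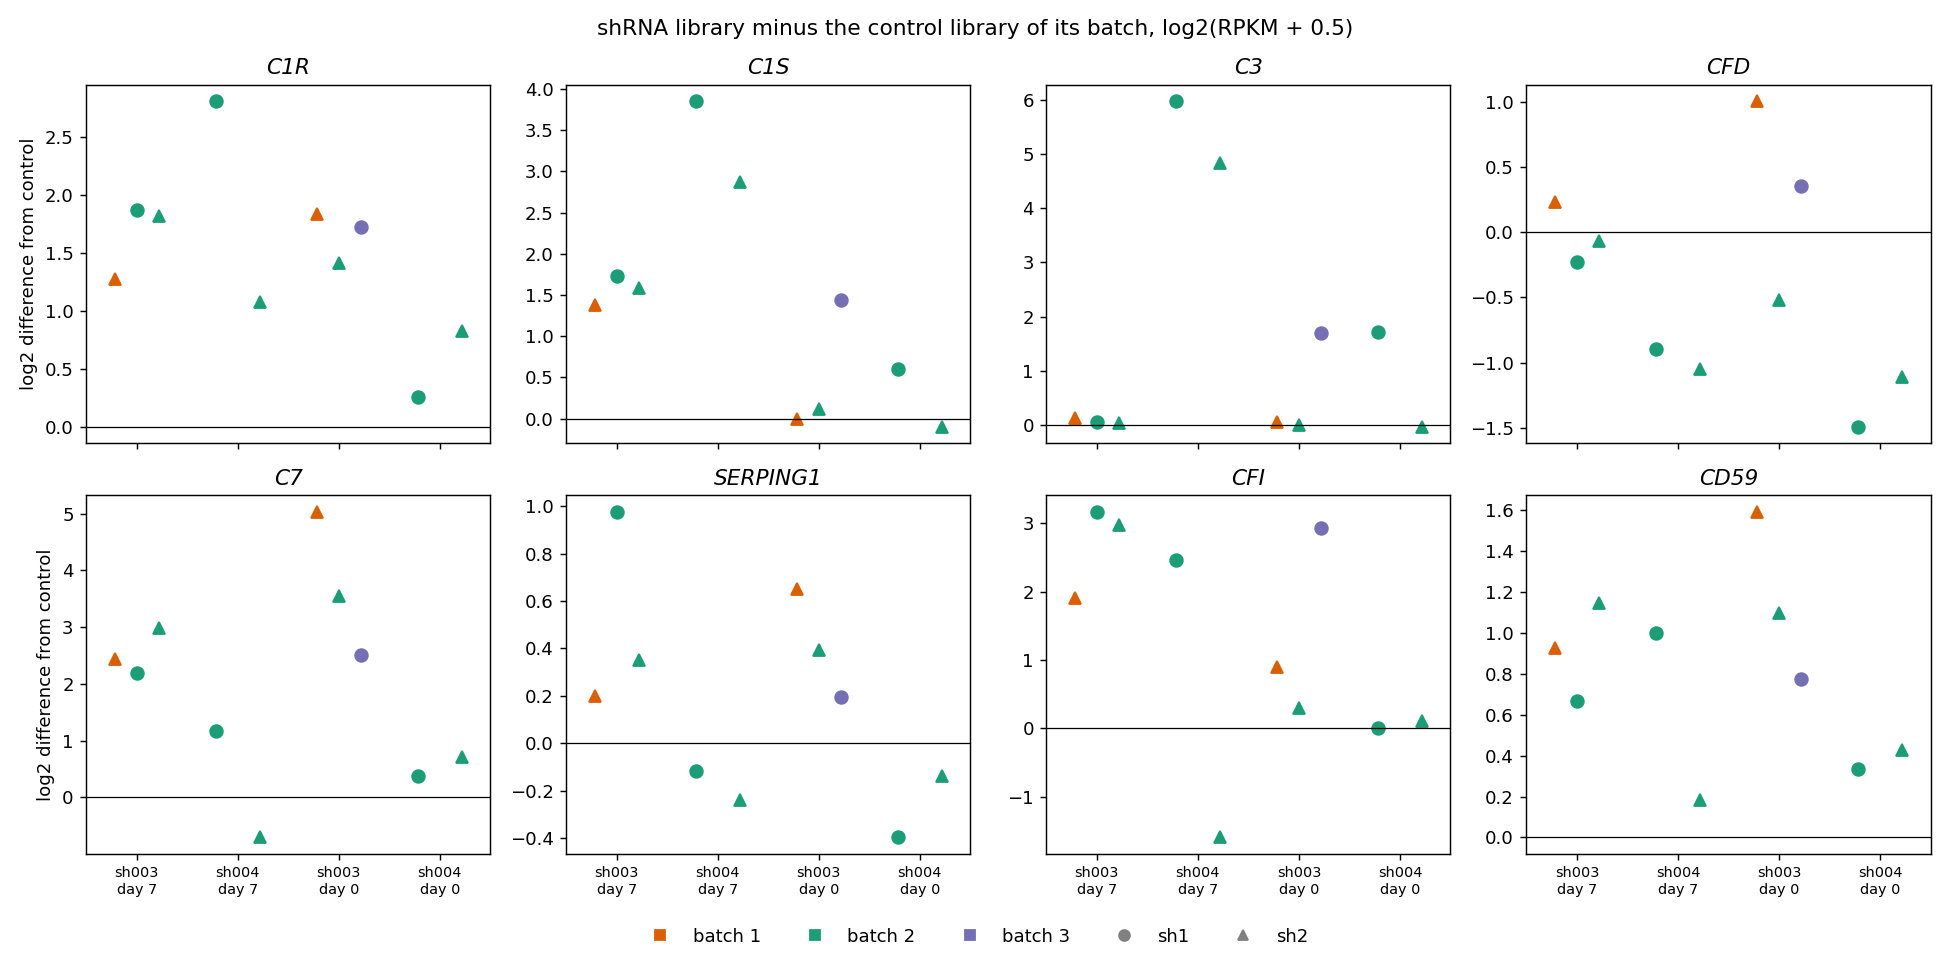
Difference of log2(RPKM + 0.5) between each sh003 or sh004 library and the control library of its batch and day, for sh003 and sh004 at day 7 and day 0, with 1 point per sh003 or sh004 library. C7, C1R, CD59, CFI, SERPING1 and C3 lay above 0 in all 6 sh003 libraries, C3 by at most 0.12 outside batch 3. The share of all genes that did so was not counted. C3 lay far above 0 in both sh004 libraries of day 7. Libraries of the same batch and day share 1 control library.

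Libraries with the CASC15-003 shRNAs, in which CASC15 itself was not lower at day 0, were compared with control at each day. At day 0, limma without the block called 0 of the 8 tested members (2 at unadjusted p under 0.05, 0 by voom) where it called 0.00514% of 19461 genes. With the block it called C7 (log2 change 3.70, SE 0.53), where it called 0.252% of all genes. The C7 call was lost without control batch 1 (log2 change 3.05), control batch 2 (3.93), sh003 sh2 batch 1 (3.40) or sh003 sh2 batch 2 (3.57) of day 0. It was also lost, with the change at 3.70, without either control library or either sh003 sh2 library of day 7, or either sh004 library of day 0. At day 7, 0 members were called without the block (2 at unadjusted p under 0.05, 0 by voom) and 0 with it (6 at unadjusted p under 0.05), against 0% and 0.00514% of all genes. C7 then differed by 2.51 (SE 0.61) and CFI by 2.52 (SE 1.18) without the block, and by 2.45 (SE 0.60) and 2.56 (SE 0.95) with it.

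With the CASC15-004 shRNAs at day 0, 0 members were called by limma without the block (1 at unadjusted p under 0.05, 0 by voom) and 0 with it (1 at unadjusted p under 0.05), where 0% of all genes were called in both. The sign of 5 of the 8 tested members turned with the block at day 0: C3 stood at -1.20 without it and 1.09 with it, C1S at -1.0 and 0.52, and C1R at -0.32 and 0.68, and CFI and CD59 turned too. At day 7, 0 were called without the block (1 at unadjusted p under 0.05, 0 by voom; 0% of all genes). With the block C3 rose by 5.45 (SE 0.61) and C1S by 3.23 (SE 0.43), where 0.226% of all genes were called. The C3 call was lost without control batch 1 (5.40) or control batch 2 (5.53) of day 7, and without the pair of libraries with contradicted tags (5.51). The C1S call was lost without control batch 1 (3.36) or batch 2 (3.01) of day 7, control batch 1 (3.18) or batch 2 (3.29) of day 0, sh003 sh1 batch 2 (3.24) or sh2 batch 2 (3.22) of day 7, or sh003 sh2 batch 1 (3.31) or batch 2 (3.19) of day 0. In batch 2 alone C3 differed from control by 5.97 (sh1) and 4.82 (sh2) and C1S by 3.85 (sh1) and 2.87 (sh2).

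Between the shRNAs against the 2 transcripts at day 7, C3 was lower with sh003 than with sh004 by the blocked fit (log2 change -5.36, SE 0.54), a call kept without each single library. This fit called 0.714% of all genes. Without the block 0 members were called (4 at unadjusted p under 0.05, 0 by voom), where 0.0206% of all genes were. C7 ran the other way (log2 change 2.48, SE 0.61, with the block) and was not called. At day 0, 0 members were called without the block (5 at unadjusted p under 0.05, 0 by voom) and 0 with it (4 at unadjusted p under 0.05), where 0.00514% of all genes were called in each.

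Day 7 was compared with day 0 to see how the genes moved as cells were treated with retinoic acid. With sh003, limma without the block called CFI (log2 change 5.13, SE 1.05) and SERPING1 (1.20, SE 0.23), where it called 2.35% of all genes. With the block, CFI rose by 5.97 (SE 0.90), SERPING1 by 1.35 (SE 0.20) and C1S by 2.37 (SE 0.35), where 14.3% of all genes were called. With sh004, 0 members were called without the block (5 at unadjusted p under 0.05, 0 by voom; 0.38% of all genes). With the block C3 rose by 4.70 (SE 0.57), C1S by 4.07 (SE 0.40), C1R by 2.37 (SE 0.45) and SERPING1 by 1.38 (SE 0.23), where 2.11% of all genes were called. In controls 0 members were called without the block (2 at unadjusted p under 0.05, 0 by voom; 0.956% of all genes). With the block CFI rose by 4.78 (SE 0.99) and SERPING1 by 1.27 (SE 0.22), where 7.68% of all genes were called. These 3 comparisons set separate libraries against each other. They come from 1 fit with a shared spread and, with the block, shared batch terms, so they are not independent.

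**Figure D3:**
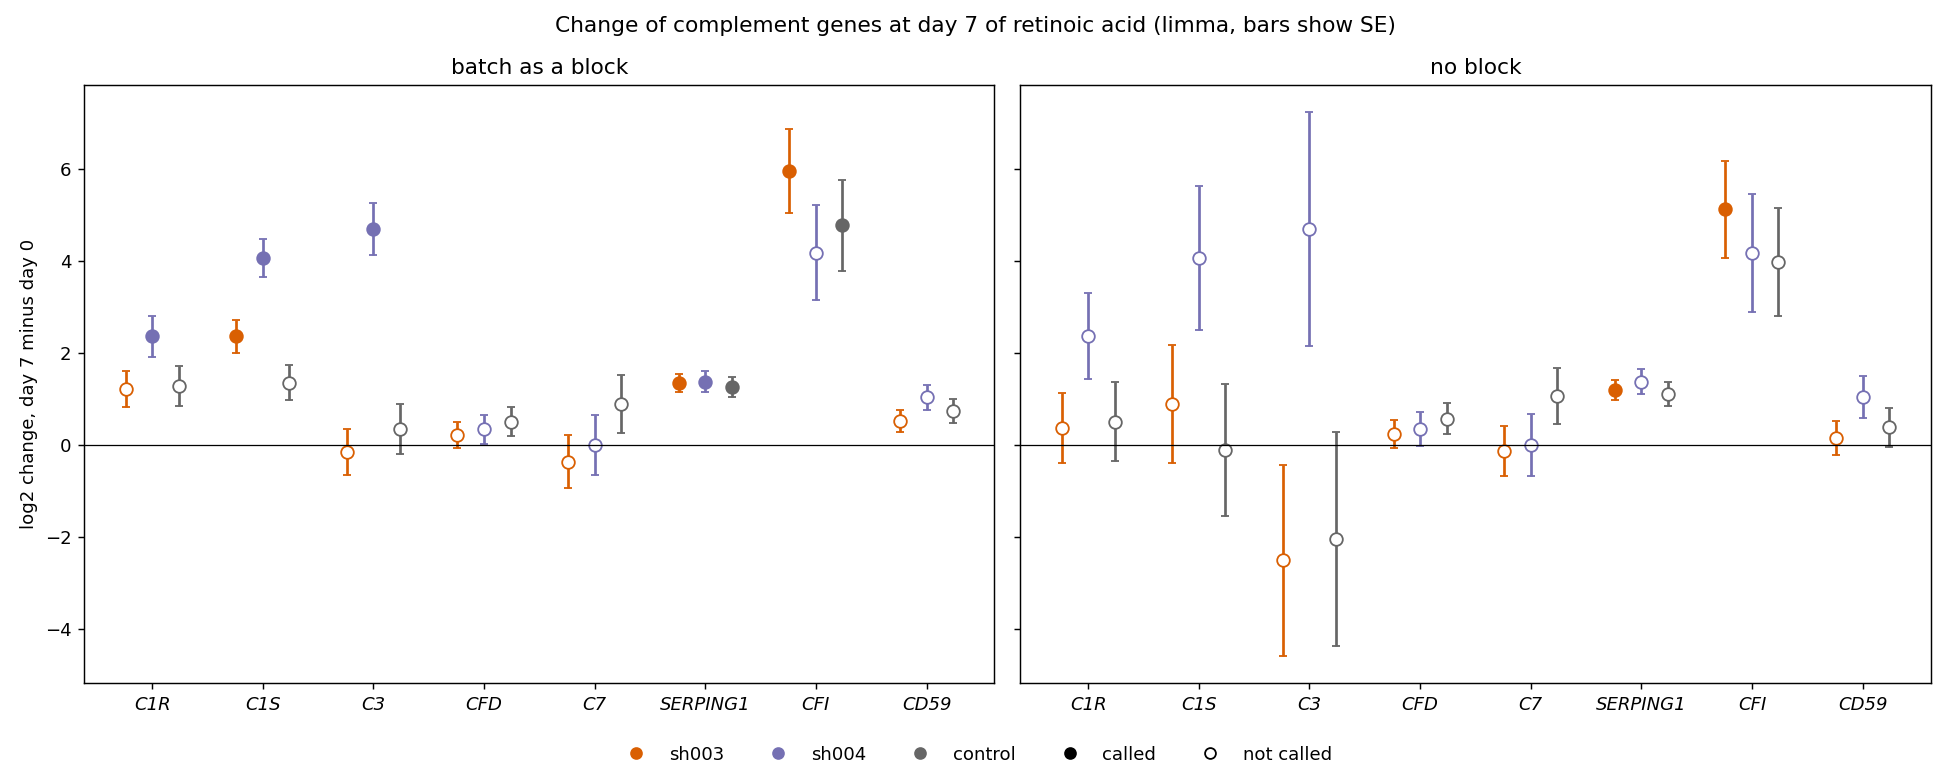
Log2 change of day 7 minus day 0, with its SE, for 8 members with sh003, with sh004 and in controls, from limma with batch as a block (left) and without it (right). Filled points were called, and SERPING1 lay between 1.11 and 1.38 in all 3 arms in both fits.

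Most of these calls were lost when a single library was left out. Without the block, CFI with sh003 was not called when sh1 batch 2 (5.06), sh2 batch 1 (5.20) or sh2 batch 2 (5.15) of day 7, sh2 batch 1 (4.64) or sh2 batch 2 (4.44) of day 0, or either sh004 library of day 0 (5.13) was left out. SERPING1 with sh003 was not called without sh1 batch 2 (0.97) or sh2 batch 2 (1.29) of day 7, or sh2 batch 1 (1.20) or sh2 batch 2 (1.09) of day 0. Leaving out the pair of libraries with contradicted tags ended both calls (CFI 4.56, SERPING1 0.98), and the CFI call was not made without a filter on low values (5.13) or by voom (5.93). With the block, CFI (5.50), SERPING1 (1.25) and C1S (2.24) with sh003 each lost the call without sh2 batch 2 of day 0. In controls with the block, CFI was lost without batch 1 (4.94) or batch 2 (5.31) of day 0, or batch 1 (4.28) or batch 2 (5.28) of day 7. SERPING1 was lost without the same 4 libraries, at 1.25, 1.20, 1.20 and 1.35 in that order. With sh004 and the block, C3 and C1S kept their calls without each single library. C1R lost its call without sh004 sh1 (2.09) or sh2 (2.66), control batch 1 (2.37) or sh003 sh2 batch 1 (2.37) of day 0. Without sh004 sh1 of day 7 it stood at 1.51 and was still called. SERPING1 with sh004 lost its call without sh1 (1.26) or sh2 (1.51) of day 0 or sh1 of day 7 (1.32).

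Whether the day 7 change differed between an shRNA group and control was tested by an interaction term. For sh003, 0 members were called without the block (0 at unadjusted p under 0.05, 0 by voom) and 0 with it (0 at unadjusted p under 0.05), where 0% of all genes were called in both. For sh004, 0 were called without the block (0 at unadjusted p under 0.05, 0 by voom; 0% of all genes) and 0 with it (2 at unadjusted p under 0.05; 0.0103% of all genes). The blocked difference of C3 was 4.36 (SE 0.80) and that of C1S 2.71 (SE 0.56), both higher in sh004.

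**Figure D4:**
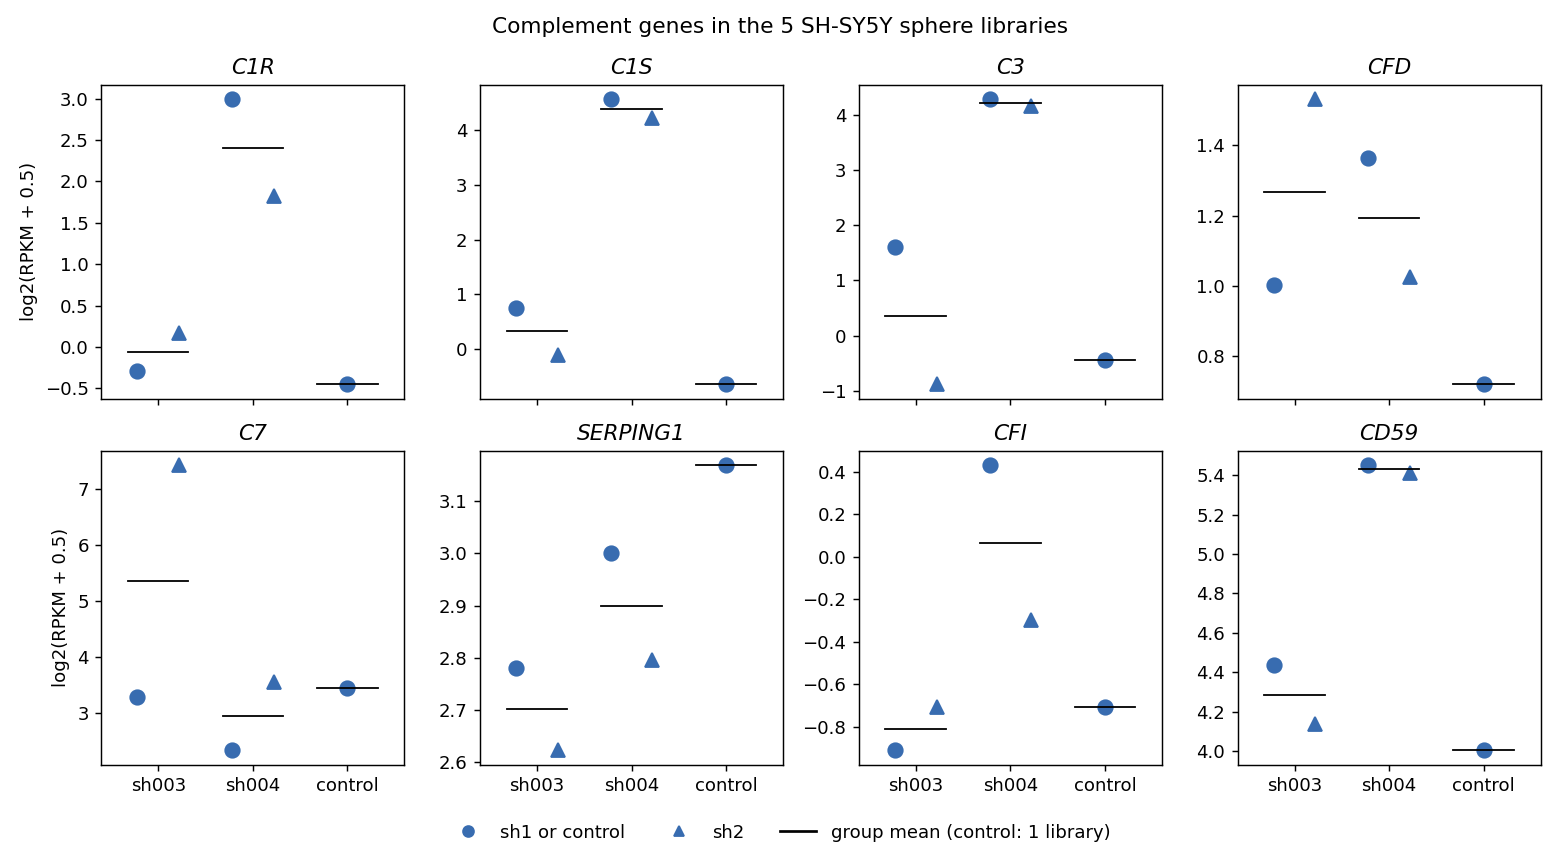
Levels of 8 complement genes in the 5 sphere libraries, as log2(RPKM + 0.5), with 1 point per library and a line at the group mean. C1R, C1S, C3, CD59 and, at under 1 RPKM, CFI were higher in both sh004 spheres than in the 3 other spheres, and C7 was high in 1 sh003 sphere. The share of all genes with the first order was not counted.

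The spheres, cells grown in sphere-forming medium, were compared among themselves. C3 was at 2.54 (sh1) and 0.0432 RPKM (sh2) with sh003, 18.9 (sh1) and 17.3 RPKM (sh2) with sh004, and 0.241 RPKM in the control. C1S was at 1.19 and 0.428 RPKM with sh003, 23.3 and 18.1 RPKM with sh004, and 0.137 RPKM in the control. C1R was at 0.318 and 0.621 RPKM with sh003, 7.47 and 3.03 RPKM with sh004, and 0.230 RPKM in the control. CD59 was at 21.1 and 17.1 RPKM with sh003, 43.2 and 42.1 RPKM with sh004, and 15.5 RPKM in the control. For these 4 genes both sh004 spheres lay above the other 3. The share of all genes with this order was not counted, and 39.9% of all genes were called between sh003 and sh004 spheres.

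In C7, SERPING1 and CFD the sh004 spheres overlapped the others. C7 was at 9.34 (sh1) and 171 RPKM (sh2) with sh003, 4.56 and 11.4 RPKM with sh004, and 10.4 RPKM in the control, so sh1 and sh2 of the CASC15-003 transcript disagreed. SERPING1 was at 6.37 and 5.66 RPKM with sh003, 7.50 and 6.45 RPKM with sh004, and 8.49 RPKM in the control. CFD lay between 1.15 and 2.39 RPKM. CFI and CD55, under the level that was tested, were higher in both sh004 spheres than in the others. CFI was at 0.849 and 0.314 RPKM with sh004, 0.0315 and 0.112 RPKM with sh003, and 0.113 RPKM in the control. CD55 was at 0.0756 and 0.0959 RPKM with sh004, and at 0.0136 RPKM or less in the others.

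Against the single control sphere, whose spread was assumed to be that of the shRNA pairs, limma called 0 of 7 tested members with sh003 (0 at unadjusted p under 0.05, 0 by voom; 0% of 14711 genes). With sh004 it called C1S (log2 change 5.05, SE 0.42), where it called 0.129% of all genes. That call was lost without sh004 sh1 (4.87) or sh2 (5.22), and voom, a weighted fit to the reads, did not make it (7.22). C3 (4.65, SE 0.91), C1R (2.86, SE 0.55) and CD59 (1.43, SE 0.24) were not called. Between sh003 and sh004 spheres, 4 of 7 members were called, all lower with sh003: C1S (log2 change -4.07, SE 0.35), C3 (-3.85, SE 0.74), C1R (-2.47, SE 0.45) and CD59 (-1.15, SE 0.19). This comparison called 39.9% of all genes, and 37.8% of 14353 with the shRNA number as a block, which added C7 (2.41, SE 0.59, higher with sh003). Without sh004 sh2 the calls of C1S (-4.25), C3 (-3.92) and CD59 (-1.16) were lost, and that of C3 also without sh004 sh1 (-3.79). None of these member calls was made without a filter on low values, and that of CD59 was not made with the deposited RPKM (-1.40). Without the sh004 spheres, where they were high, C1R, C3 and C1S would not have passed that filter. Outside those spheres C1R stayed under 1 RPKM, and C3 and C1S reached it only with sh003 sh1. Their calls are therefore a description.

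Of the 48 other complement genes, 36 lay under 1 RPKM in every library and 12 reached it in at least 1. Of these, 9 were tested in monolayers and 8 in spheres. COLEC11, a collectin of the lectin pathway, rose at day 7 with sh003, at 112, 102 and 170.0 RPKM, against 39.5, 34.2 and 51.3 RPKM at day 0 (log2 change 1.59, SE 0.33, limma adjusted p = 0.0303; 1.45 and adjusted p = 0.0217 with the block). The blocked fit also called it in controls (1.45, adjusted p = 0.0433) and between sh003 and sh004 at day 7 (2.0, adjusted p = 0.0432). CD46, a membrane cofactor of factor I, rose at day 7 with the block in sh003 (0.91, adjusted p = 0.00821) and controls (1.07, adjusted p = 0.00991). MASP2, the lectin pathway protease, rose with sh003 at day 7 with the block (0.78, adjusted p = 0.0360). C6, the terminal component before C7, was at 2.58, 1.11 and 1.20 RPKM with sh003 at day 0, against 0.124, 0.0928 and 0.476 RPKM in controls (1.52, adjusted p = 0.0183 with the block; 0.375 without it). With sh003 C6 fell at day 7 in the blocked fit (-1.10, adjusted p = 0.00742). Among monolayers only the sh003 libraries of day 0 reached 1 RPKM of C6, and every other library held 0.476 RPKM or less. It was thus tested only through the group where it was high, and both of its calls rest on that group. No other gene of the list was called in a monolayer comparison by limma on log2 RPKM. CLU, the inhibitor of terminal complexes, was not called but parted the monolayers as C7 did. Every sh003 library held 38.6 RPKM or more, and every sh004 and control library 34.3 RPKM or less. At day 7 VTN, for vitronectin, was at 9.799 RPKM or more with sh003, against 2.48 RPKM or less in controls. Its level in sh004 sh1 was 18.5 RPKM, within the sh003 range, and at day 0 sh003 and control overlapped.

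The calls of COLEC11, CD46, MASP2 and C6 too were lost without single libraries. COLEC11 at day 7 with sh003 was not called without any 1 sh003 library (1.37 to 1.75) or either sh004 library of day 0 (1.59), and with the block not without sh2 batch 1 or sh2 batch 2 of either day (1.24 to 1.55). In controls it was lost without any 1 control library (1.13 to 1.76), sh003 library of day 0 (1.37 to 1.46), sh003 sh2 batch 1 of day 7 or either sh004 library of day 0 (1.45). Between sh003 and sh004 it was lost without any 1 library but the sh1 libraries of day 7 (1.32 to 2.06). CD46 was lost without sh003 sh2 batch 2 of day 0 (0.84) with sh003, and without control batch 1 of day 0 (1.08), batch 1 (1.18) or batch 2 (0.96) of day 7 in controls. MASP2 was lost without sh003 sh2 batch 1 or batch 2 of either day (0.62 to 0.75). C6 at day 7 was lost without sh003 sh2 batch 2 of day 0 (-1.09), and C6 at day 0 without control batch 1 or 2 or sh003 sh2 batch 1 or 2 (1.51 to 1.57). Over the 9 tested genes of this list the median log2 change at day 7 without the block was 0.50 with sh003, 0.32 with sh004 and 0.35 in controls, against 0.05, 0.02 and 0.15 over all genes. Over the 8 tested members it was 0.31 with sh003, 1.88 with sh004 and 0.55 in controls.

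In spheres, unlike in monolayers, CLU was lower with sh003 than with sh004. It was at 4.85 and 3.05 RPKM with sh003, against 36.8 and 39.7 RPKM with sh004 (log2 change -3.15, SE 0.25, limma adjusted p = 0.00756). The terminal subunit gene C8G (-1.88, adjusted p = 0.0178), the factor B gene CFB (-1.75, adjusted p = 0.0177) and VTN, for vitronectin (-1.17, adjusted p = 0.0480), were also lower with sh003. The CLU call was lost without sh004 sh2 (-3.10), the CFB call without sh003 sh2 (-1.64), the VTN call without sh003 sh1 (-1.34) or sh2 (-0.99), and the C8G call without sh003 sh2 (-1.36), sh004 sh1 (-1.69) or sh004 sh2 (-2.07). CFB stood at -3.26 with a pseudocount of 0.1 and -4.87 by voom, and was called in both. The median log2 change between sh003 and sh004 spheres was -0.79 over the 8 tested genes of this list and -1.15 over the 7 tested members, against 0.13 over all genes. CFB, VTN and C8G would not have passed the filter on low values without the sh004 spheres, where they were high. The same held for the members C1R, C3 and C1S, and the members were chosen with their values known. These medians are therefore a description. C5 and C1QBP were above 1 RPKM in every library and were not called by limma on log2 RPKM, with or without a block. SUSD4 reached 1 RPKM in KELLY and in 1 SH-SY5Y library. In this list C1QA, C1QB and C1QC, the partners of C1R and C1S, were among the genes under 1 RPKM everywhere.

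The genes most like 4 members over the 15 monolayer libraries, by Pearson correlation of log2(RPKM + 0.5), are a description of libraries that share batch and day. For C7 they were PAM (0.950), MAPKAPK2 (0.898) and LY6E (0.890). For C3 they were MIR3142HG (0.986), TNFAIP3 (0.975) and PI3 (0.974). For C1S they were PARP10 (0.955), MAP3K8 (0.955) and a gene without a symbol, and for CFI they were FER1L4 (0.978), NIPAL3 (0.977) and GSAP (0.977). Among the members themselves C1R and CD59 correlated at 0.945 and SERPING1 and CFI at 0.911, while C7 and C3 stood at -0.17.

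In KELLY the profile was another one, in a table normalised on its own. SOX9 was at 0.974 RPKM with the SOX9 siRNA, against 5.61 RPKM with the control siRNA. C7 was at 82.0 RPKM with the SOX9 siRNA, against 120.5 RPKM with the control siRNA, a ratio of 0.680 (95% exact interval 0.663 to 0.697, counting error only). CD55, near 0 in SH-SY5Y, was at 9.31 RPKM with the SOX9 siRNA, against 8.08 RPKM with the control siRNA (ratio 1.15, interval 1.05 to 1.26). CD59 was at 4.23 RPKM, against 5.70 RPKM with the control siRNA (ratio 0.743, interval 0.662 to 0.834). The other 6 members lay under 0.5 RPKM, and CFI had 0 reads in both libraries. None of C7, CD55 and CD59 differed by 2 times or more, as 4% of the 14340 genes at 1 RPKM or more did, and with 1 library per siRNA there is no replicate check.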

How the data were processed

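The authors deposited RPKM for monolayer, sphere and KELLY libraries. Per the labels' protocols, libraries were stranded total RNA without ribosomal RNA, and the submitters' processing notes name featureCounts, Subread, TopHat and build hg19, without versions. Whole reads were recovered from RPKM, gene length and the spacing of the values; 100% of values came within 0.01 of a whole number. In the sphere table the deposited RPKM of a library rest on 10 totals in rotation over genes, of which 5 equal a sphere library's total, so sphere RPKM were rebuilt by dividing recovered reads by the true total.

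Genes at RPKM 1 or more in 2 or more libraries were kept (19461 in monolayers, 14711 in spheres) and fitted with limma 3.58.1 in R 4.3.3 on log2(RPKM + 0.5) with the trend option, and a common residual spread for all groups (9 residual degrees of freedom in monolayers, 2 in spheres). Batch numbers come from the titles. Deviations from the group mean correlated at 0.716 to 0.942 in 16 same-batch pairs among control and sh003 libraries (median 0.818). In 29 pairs of different batches they correlated at -0.920 to 0.744 (median -0.79). Deviations within a group cancel out, so opposite signs between batches are partly forced. Pairs of batches 2 and 3 correlated at 0.536 to 0.744, so the split was mainly batch 1 against the others. Batch as a block is therefore printed beside the main values. The scripts were tested on simulated data. Nothing says that libraries came from separate cultures, so p-values measure a spread that may be technical. The members and lists were chosen with earlier results of these data known. Of the wider list, genes were named where called, or at a mean RPKM of 1 or more in a table, and the 3 genes most like a member were named by correlation. KELLY intervals are exact (Clopper-Pearson) and, like floors of 3 reads, cover counting error only. Gene overlaps come from the GENCODE annotation and promoters from RefSeq (GRCh38.p14), a later build than hg19. Alternatives were another pseudocount, no filter on low values, TMM scaling, voom on the recovered reads, the deposited sphere values, the block, and leaving out libraries.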

Additional observations from a re-analysis of the deposited data

Results flagged for a closer look

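shRNA and control libraries parted in opposite directions in different stages for CFD and SERPING1, with every library of a stage on the same side of every control library of that stage. These differences between stages were not tested, since monolayers and spheres were deposited in separate tables, and the sphere control is 1 library. CFD with sh004 differed from control by -0.83 (log2) at day 0 and -1.07 at day 7, but by 0.47 in spheres. SERPING1 with sh003 differed by 0.50 at day 7 and by -0.47 in spheres. In spheres neither side was particular to 1 shRNA group. CFD was at 1.51 and 2.39 RPKM with sh003 and 2.07 and 1.54 RPKM with sh004, against 1.15 RPKM in the control. SERPING1 lay below its control of 8.49 RPKM in the sh003 (6.37 and 5.66 RPKM) and the sh004 spheres (7.50 and 6.45 RPKM). CFI with sh003 differed by 2.52 at day 7 and by -0.10 in spheres, but the sphere value shows no direction: it rests on 4 and 12 reads with sh003, against 17 reads in the control, in a gene under the level that was tested.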

How the results depend on the processing

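Each count of called members was recomputed under the alternatives. Of 95 changes of tested members fitted with and without the block, 12 had another sign with it, none of them called in either fit. They were C1R, C1S, C3, CD59 and CFI for sh004 against control at day 0, C7 and CFI for the same at day 7, C1S and C3 for sh003 against sh004 at day 0 and for day 7 against day 0 in controls, and CFI in the sh004 interaction. The replicate block, batch as a block, gave a count of 1 for sh003 against control at day 0. At day 7 it gave 2 for sh004 against control and 1 for sh003 against sh004. For day 7 against day 0 it gave 2 in controls, 3 with sh003 and 4 with sh004. In spheres, with the shRNA number as the block, it gave 5 for sh003 against sh004. Leaving out the pair of sh003 libraries with contradicted tags gave 0 for day 7 against day 0 with sh003. Together with the replicate block, chosen after seeing the data, it gave 1 for sh003 against sh004 at day 7, and for day 7 against day 0 it gave 1 with sh003, 3 with sh004 and 1 in controls. Without a filter on low values the counts were 1 for day 7 against day 0 with sh003, 0 for sh004 against control spheres and 0 for sh003 against sh004 spheres. By voom they were 1 for day 7 against day 0 with sh003 and, added after seeing the data, 0 for sh004 against control spheres. The deposited sphere values gave 3 for sh004 against control spheres. Leaving out single libraries, with and without the block, gave 0 to 3 for sh003 against control at day 0, 0 to 5 at day 7, 0 to 3 for sh004 against control at day 7 and 0 to 3 for sh003 against sh004 at day 7. For day 7 against day 0 it gave 0 to 4 with sh003, 0 to 6 with sh004 and 0 to 5 in controls. In spheres it gave 0 to 3 for sh004 against control and 0 to 5 for sh003 against sh004. The cause was not tested, except that fewer libraries leave fewer degrees of freedom. In all, 99 counts moved and 351 did not. A count above 0 that changed only a little, as from 4 to 5 or from 2 to 3, is among the 351. edgeR's quasi-likelihood test was not run, since the deposited values are RPKM. CFD, CD55 and the day 0 values of C1S and C3 outside batch 3 rest on too few reads to show small differences.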
